A study of Rattus norvegicus and Mus musculus with 14 samples.

Results

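Brain cortex from an nNOS knockout mouse, without the neuronal form of nitric oxide synthase, was compared with that of a wild-type littermate, both adult and labelled c57bl, on 1 array each. These 2 arrays are 2 of the 14 in the series, taken by their sample titles, and all 1152 probes of each were used. The other 12 arrays hold cultured rat embryonic cortical neurons under a control solution, NMDA, or NMDA with an inhibitor of MEK or of nitric oxide synthase. The labels give neither the deleted part of the gene nor the age in weeks, the sex or the number of animals behind each RNA, so whether a sample was 1 mouse or a pool is unknown. With 1 array per genotype there is no replicate and no test: each difference below is a difference between these 2 arrays and may come from animal, dissection, labelling or hybridisation as well as genotype, which cannot be told apart.

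Neuronal nitric oxide synthase makes nitric oxide from arginine when calcium and calmodulin activate it. It is held near NMDA-type glutamate receptors by the postsynaptic scaffold protein encoded by Dlg4, so that calcium entering through the receptor switches it on. Nitric oxide then activates soluble guanylyl cyclase, which makes cyclic GMP, and it also modifies cysteines of other proteins directly. In cortex the enzyme is known for its strong expression in a sparse class of inhibitory interneurons. The knockout removes this source for the whole life of the animal, unlike an inhibitor given to a culture.

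The values are Z-scores: within an array, the mean over all probes is 0 and 1 unit is about 1 SD over probes (0.998 in both mouse arrays). A Z-score is a brightness relative to the other probes of its array, so a difference of 0.5 Z units cannot be turned into a fold, and a change shared by all probes would not be seen. Higher was read as brighter, which the sources used here do not state. Of the 1152 probes, 384 carry 1 rat gene symbol, standing for 342 genes, and 768 carry none or several and are not named. Mouse RNA was thus read on probes annotated to rat genes, and the part of sequence differences between the species was not tested. No probe was named for Nos1, which encodes nNOS, so the loss of its transcript could not be checked on these arrays. The list written for nitric oxide synthases, guanylyl cyclase and other cyclic GMP pathway genes had 0 genes measured, and so did the list of activity-regulated genes such as Fos and Arc.

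The knockout and wild-type columns were close to each other, with a Pearson r of 0.980 over probes (a description, as probes are no replicates). The difference, knockout minus wild type throughout, ran from -0.86 to 0.68 Z units, with an SD of 0.199 and a median of 0.003. A limit of 0.5 Z units was set for counting, and 27 probes (2.34% of all) lay past it, of which 18 (1.56%) were lower and 9 (0.781%) were higher in the knockout. No probe reached a difference of 1 (0 of 1152), and 124 (10.8%) reached 0.3, with 58 (5.03%) higher and 66 (5.73%) lower. By any amount, 50.6% of all probes were higher in the knockout and 49.4% were lower.

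**Figure D1:**
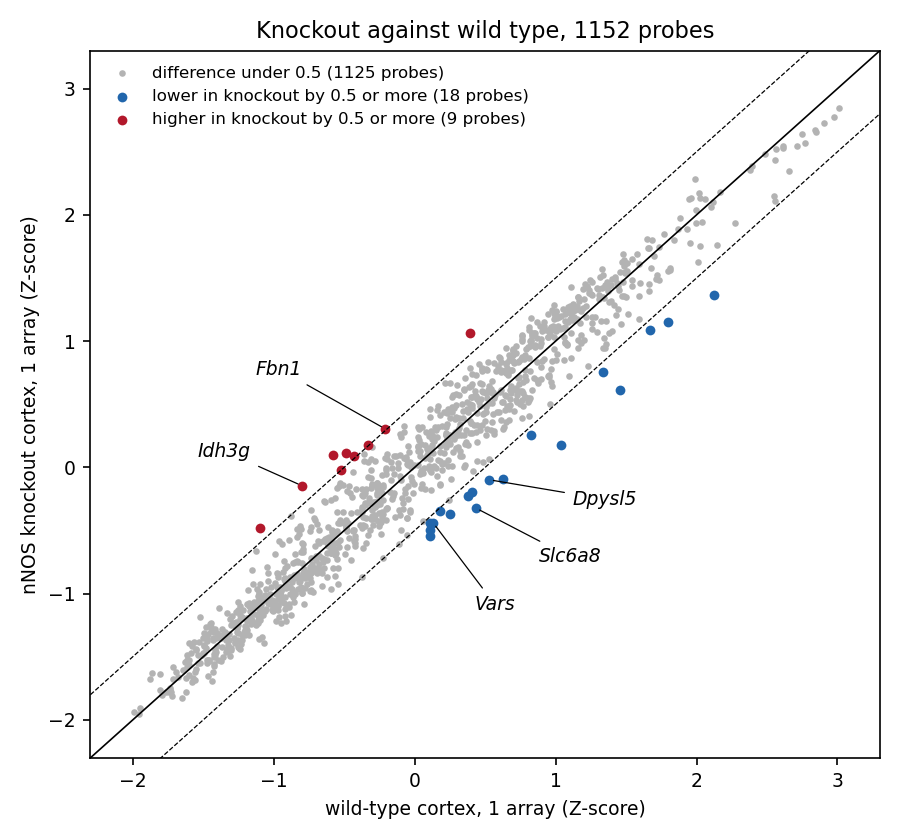
Each point is 1 of the 1152 probes, with its Z-score in the wild-type array on the horizontal axis and in the nNOS knockout array on the vertical axis; the solid line marks equal values and the dashed lines a difference of 0.5 Z units. The points follow the line (r = 0.980), with 18 probes below the lower dashed line and 9 above the upper one, and the 5 of them with a gene name are labelled.

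How far 2 arrays of one kind differ could be seen only in the rat cultures, since neither mouse genotype was repeated. The 2 NMDA arrays of the MEK inhibitor set differed with an SD of 0.128 over probes and 9 probes past 0.5, and the 2 PD98059 arrays with 0.131 and 5 probes. In the nitric oxide synthase inhibitor set, whose experiment 2 stands apart from experiment 1 in all 3 arrays, pairs of one treatment differed with an SD of 0.870 to 0.944 and 678 to 733 probes past the limit. The 2 control arrays of the MEK set correlated at only 0.122 and give no usable spread. The mouse pair, at 0.199, therefore differed by more than the NMDA and PD98059 pairs of the MEK set. It differed by less than the pairs of the nitric oxide synthase set, whose spread includes the gap between its 2 experiments. These pairs are of another species and of cultured cells, so they describe the platform and not the spread between mice.

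Of the 27 probes past the limit, 5 have a gene name; Vars and Idh3g are dimmer than the median probe and were named after their values were seen, as were Npr3, Mef2d and Eef1g further on. Slc6a8, which encodes the plasma membrane creatine transporter, had the lowest named value: 0.44 in the wild type and -0.32 in the knockout, a difference of -0.76 and the third lowest of all 1152 probes. Dpysl5, of the collapsin response mediator proteins in growing neurites, was at 0.53 and -0.10, a difference of -0.63. Both probes stood above the array mean in the wild type and below it in the knockout. This follows from their mean levels of 0.06 and 0.22 over the 2 arrays and their wide differences. Vars, valyl-tRNA synthetase, was at 0.13 in the wild type and -0.44 in the knockout, a difference of -0.57. On the other side, Idh3g, a subunit of the mitochondrial NAD-dependent isocitrate dehydrogenase of the citric acid cycle, was at -0.80 and -0.14, a difference of 0.66. Fbn1, the extracellular matrix protein fibrillin, was at -0.21 and 0.31, a difference of 0.52. The values nearest the limit were those of Sf3a3 just inside 0.5, at -0.498, and an unnamed probe just past it, at 0.502. The remaining 22 probes have no name here, 15 of them lower and 7 higher, so 2.86% of unnamed probes and 1.30% of named ones were past the limit. The lowest of all is probe 407, at 1.04 in the wild type and 0.18 in the knockout, followed by probe 935, at 1.46 and 0.61. The highest are probe 571, at -0.58 and 0.10, and probe 486, at 0.39 and 1.07.

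The differences also followed the order of the probes. Probes next to each other in that order had differences correlated at r = 0.199, and probes 12 apart at 0.242, against 0.0285 for 6 apart, over 1140 or more pairs. Over probes 1 to 96 the median difference was -0.04, and over probes 961 to 1056 it was 0.08. The sources used here do not say whether this order is that of the spots. The part of this pattern in single differences was not tested. With the median of neighbours in a grid 12 wide removed, 18 probes were past the limit, 12 of which were among the 27. That median included the probe itself, so a probe that was its own median went to 0. Slc6a8 was then at -0.62. Among the 24 probes picked below for their difference, a value moved by more than 1.5 times is also given with neighbours removed. For all other probes named below that value is not given, so its absence says nothing of how far they moved.

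The differences were widest in the middle of the brightness range. When probes were cut into 10 groups by mean level, in the fifth group the SD of the difference was 0.268 and 11 probes were past the limit, against an SD of 0.116 and 0 probes in the dimmest group. The median difference varied with level too, from -0.04 in the third group to 0.11 in the ninth. The overall median of 0.003, used beside the lists below, does not account for level. Named genes were drawn from probes whose mean over the 2 arrays was above that of the median probe, the 12 with the largest difference each way among 190 such named probes. They hold 23 genes, since 2 of the probes are of COX3. Being picked for their difference, they show its extremes on this pair of arrays, and neither its typical size nor its reliability. Slc6a8, Dpysl5, Sf3a3, Eepd1 and COX3 probe 843 were above the median level, -0.013, in the wild type only. Fbn1, Cacnb1, Rpsa and Macf1 were above it in the knockout only. That these probes crossed the array mean follows from the choice.

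Among the 12 lower probes, Slc6a8 and Dpysl5 were followed by Sf3a3, Mrpl37 and Rraga. Sf3a3, a subunit of a splicing complex that helps define the branch point, was at 0.24 in the wild type and -0.25 in the knockout (difference -0.50). Mrpl37, a protein of the large mitochondrial ribosomal subunit, was at 0.52 and 0.07 (difference -0.46, and -0.16 with neighbours removed). Rraga, the GTPase that brings mTORC1 to the lysosome when amino acids are present, was at 0.96 and 0.51 (difference -0.45). All 3 were nearer to the array mean or beyond it in the knockout. Eepd1, an endonuclease family protein, was at 0.41 and -0.03 (difference -0.44). Ankrd28, a regulatory subunit of protein phosphatase 6, was at 0.35 and 0.004 (difference -0.35, and -0.18 with neighbours removed).

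Receptor and signalling genes were among the lower probes too. Gabbr1, a subunit of the metabotropic GABA-B receptor, was at 0.45 in the wild type and 0.05 in the knockout (difference -0.40). Nppa encodes the precursor of atrial natriuretic peptide, a hormone whose receptor makes cyclic GMP by a route that does not use nitric oxide, and its probe was at 1.36 and 0.98 (difference -0.38, and -0.17 with neighbours removed). The probe of Npr3, the clearance receptor for the same peptides, was at 2.10 and 2.06 (difference -0.04), so the 2 genes did not differ to the same extent. Tcf4, a helix-loop-helix transcription factor, was at 1.4 and 1.08 (difference -0.32, and -0.15 with neighbours removed). Its probe and that of Nppa were well above the array mean in both genotypes.

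Fbn1 led the 12 higher probes and Uchl1 came next. Uchl1, the abundant neuronal ubiquitin hydrolase, was at 0.25 in the wild type and 0.67 in the knockout (difference 0.42). Cacnb1, an auxiliary beta subunit of voltage-gated calcium channels, was at -0.08 and 0.33 (difference 0.40, and 0.24 with neighbours removed). Tubb5, a beta-tubulin, was at 0.11 and 0.46 (difference 0.36, and 0.21 with neighbours removed). Macf1, a large protein that links microtubules to actin, was at -0.09 and 0.24 (difference 0.34, and 0.13 with neighbours removed). Sv2b, a glycoprotein of synaptic vesicles, was at 0.48 and 0.77 (difference 0.29, and 0 with neighbours removed, as it was itself the median). Cacnb1, Rpsa and Macf1, like Fbn1, went from below the array mean to above it, which follows from how they were picked. The other 8 of the 12 were above it in both arrays.

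The remaining higher probes were of genes with varied roles. Rpsa, a protein of the small ribosomal subunit, was at -0.10 in the wild type and 0.26 in the knockout (difference 0.36). Bcat1, the cytosolic aminotransferase of branched-chain amino acids, was at 0.52 and 0.83 (difference 0.31, and 0.16 with neighbours removed). Slc3a2, the heavy chain shared by several amino acid transporters, was at 0.87 and 1.15 (difference 0.28). Grb2, the adaptor that couples receptor tyrosine kinases to Ras, was at 0.65 and 0.95 (difference 0.30, and 0.15 with neighbours removed). The zinc finger gene Zfp706 was at 0.48 and 0.79 (difference 0.31, and 0.11 with neighbours removed), and Mcrs1, a nuclear and centrosomal protein, at 0.02 and 0.32 (difference 0.30). All 24 named probes kept their sign under 5 other scalings or trend removals. With the median of neighbouring probes in an assumed grid removed, 23 of the 24 kept theirs, and 13 moved by more than the SD of 0.128 above, with Sv2b at 0. With the running median along the probe order removed, Macf1 and Bcat1 were at 0.20 and Sv2b at 0.16.

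**Figure D2:**
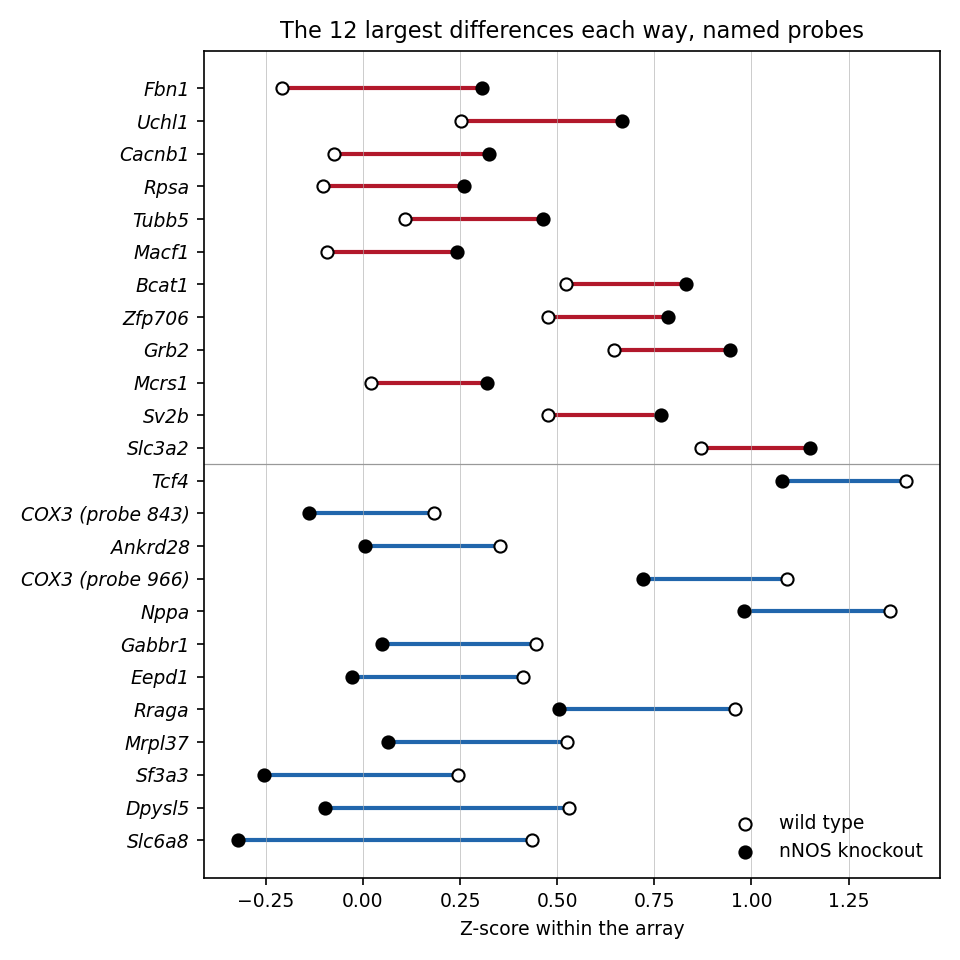
Z-scores of the 12 named probes with the largest difference each way, with the wild-type array as open circles and the nNOS knockout array as filled circles, 1 array each. Lines join the 2 values of a probe, in red where the knockout is higher and in blue where it is lower; the differences run from -0.76 for Slc6a8 to 0.52 for Fbn1.

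Because 27 genes have more than 1 probe, the same gene could be read several times on the same pair of arrays. COX3, the mitochondrially encoded subunit of cytochrome c oxidase, has 7 probes, and 6 were lower in the knockout. Its brightest probe was at 2.65 in the wild type and 2.35 in the knockout, a difference of -0.31. Others were at 1.09 and 0.72, and at 0.18 and -0.14, differences of -0.37 and -0.32 (the latter -0.18 with neighbours removed). The remaining 4 ran from -0.17 to 0.04, so the gene's probes share a direction more than a size. Cand1, a regulator of cullin ubiquitin ligases, was lower on 3 of 3 probes, at -0.19, -0.15 and -0.10. Septin4, a filament-forming GTPase, was lower on both probes, at -0.27 and -0.24, and Snx27, a sorting nexin of endosomes, on both, at -0.26 and -0.18.

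Several genes were higher on both of their probes. Uchl1 was higher by 0.42 and 0.19, and its second probe was at 1.32 in the wild type and 1.51 in the knockout. Pqbp1, a polyglutamine-binding splicing protein, was higher by 0.36 and 0.25. Grb2 was higher by 0.30 and 0.11, Bcat1 by 0.31 and 0.03, and the microfibril gene Mfap4 by 0.35 and 0.09. In Grb2, Bcat1 and Mfap4 the difference was mainly that of 1 probe. Eef2, the translocation factor of translation, was higher by 0.15 and 0.14, and the brain creatine kinase gene Ckb by 0.21 and 0.06.

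Other genes had probes of both signs, as COX3 did. The second probe of Rpsa was at -0.68 in the wild type and -0.70 in the knockout (difference -0.02), far from the 0.36 of the first. Eef1g, a subunit of elongation factor 1, was at 0.39 on 1 probe and -0.03 on the other. The 5 probes of Actb, cytoplasmic actin, ran from -0.17 to 0.08 (3 lower, 2 higher). The 5 of the elongation factor gene Eef1a1 ran from -0.15 to 0.09 (4 lower, 1 higher). The 5 of Hspa8, the constitutive chaperone Hsc70, ran from -0.03 to 0.24 (1 lower, 4 higher). In all, 14 of the 27 genes had probes of one sign only and 13 had both. Most of these genes have 2 probes, and 2 unrelated differences would also often share a sign. The count of 14 is therefore no measure of agreement. The SD between probes of one gene was 0.130, against 0.179 over all 69 of these probes. A gene's single probe value is therefore uncertain by about the size of many of the differences given here, although probes of a gene can also differ in the transcript form or relative that they bind.

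**Figure D3:**
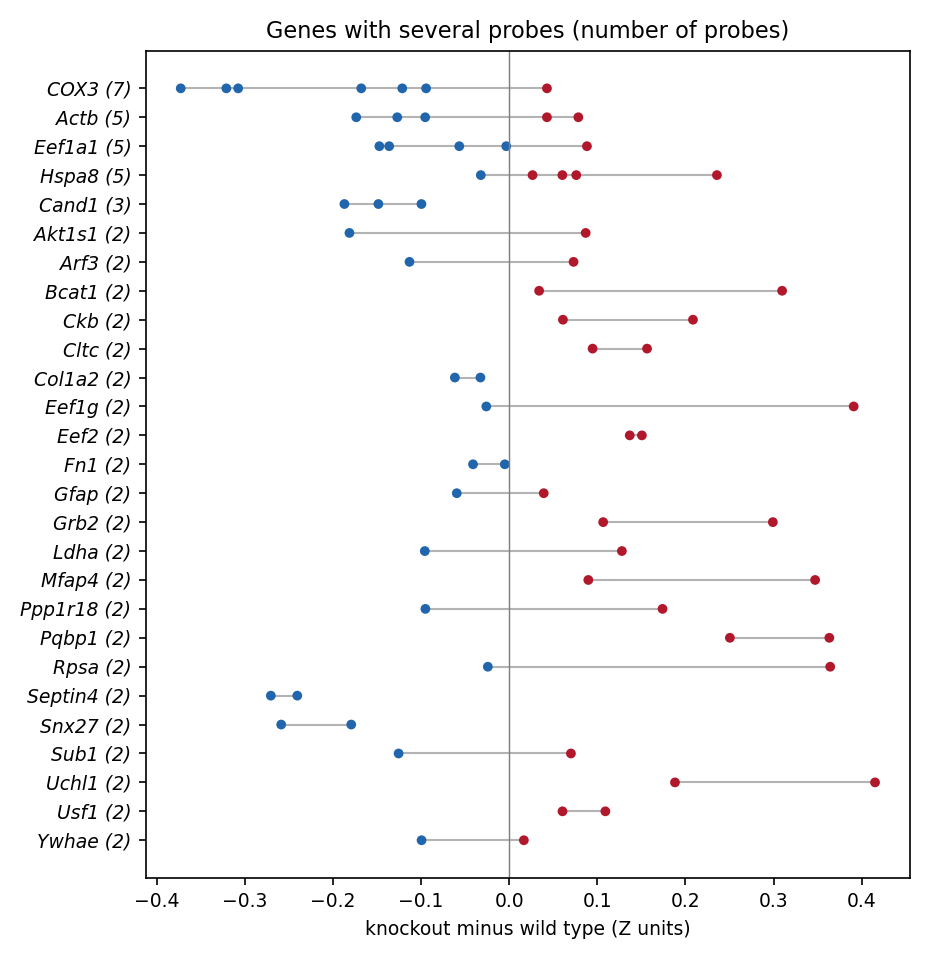
Knockout minus wild-type difference in Z units for each probe of the 27 genes with more than 1 probe, with the number of probes after each gene symbol; red points are higher and blue points lower in the knockout, and grey lines join probes of a gene. COX3 has 6 of 7 probes below 0, Cand1 has 3 of 3, and Uchl1 and Pqbp1 have both probes above 0.

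Gene lists were written for pathways that bear on nNOS and for the general functions a small neuronal array could cover. They were chosen with earlier results of these data known, so their counts and medians are descriptions only. At least 3 genes were measured in 12 pathway lists. Each list is described by its count and median beside the 50.6% of all probes that were higher and the overall median of 0.003. None had more than 1 probe past 0.5.

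Oxidative phosphorylation was lower in 9 of 11 probes (median -0.12 Z units). Of the 11 probes 7 are of COX3, so the list rests largely on 1 gene, and with each gene's probes averaged the median was -0.04. Atp5pb, a stalk subunit of ATP synthase, was at -0.92 in the wild type and -1.18 in the knockout (difference -0.26). Atp5f1a, the catalytic head's alpha subunit, was at -0.04 and the complex I assembly factor Ndufaf1 at -0.01. In contrast Atp5mc1, a subunit of the membrane ring, went from 0.85 to 1.07 (difference 0.21). Nuclear-encoded members thus had differences on both sides of 0.

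Postsynaptic and inhibitory synapse genes were lower in 3 of 4 probes, with a median of -0.14 (-0.06 with neighbours removed). Dlg4, the scaffold that anchors nNOS at the NMDA receptor, was at 0.41 in the wild type and 0.28 in the knockout (difference -0.13). Nlgn2, an adhesion molecule of inhibitory synapses, was at -0.15 and Gabbr1 at -0.40, while the scaffold gene Shank1 was at 0.06. The Dlg4 difference was about as large as the SD of 0.128 between the closest pair of repeated rat arrays. No NMDA receptor subunit was measured.

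Among MAP kinase pathway genes 6 of 8 probes were lower, with a median of -0.07. Mef2d, a transcription factor that MAP kinases and calcium signals act on, was at 0.06 in the wild type and -0.42 in the knockout (difference -0.48), just inside the limit. Mapk8, a stress-activated kinase, was at -0.23, the ETS factor gene Etv5 at -0.13, Rap1gap at -0.10, Map2k2 at -0.05 and Mapk9 at -0.01. Both Grb2 probes were on the other side. The median of this list had the other sign in 2 of 8 alternative settings, and was 0.14 over its 2 probes above the median level.

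Calcium sensing and signalling genes were split, 2 of 4 each way, around a median of -0.02. Prkca, a protein kinase C, was at -0.08 in the wild type and -0.33 in the knockout (difference -0.24). The neuronal calcium sensors Hpca and Ncald were at -0.08 and 0.05, both small beside the 0.40 of Cacnb1.

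Ribosomal protein genes were higher in 5 of 8 probes, with a median of 0.13. Rplp0 was higher by 0.19, Rps6 by 0.16 and Rps19 by 0.15, and Rpl27 was lower, at -0.23. Proteasome and ubiquitin genes were higher in 4 of 7 probes (median 0.11), with Uchl1 and Psmc3, an ATPase subunit of the proteasome, at 0.22, on one side and the 3 Cand1 probes on the other. Splicing factors were higher in 5 of 8 (median 0.07), led by Pqbp1 and the RNA helicase gene Ddx5 at 0.23. Sf3a3, at -0.50 among the named probes, was not on this list and lay below all its members. Synaptic vesicle and endocytosis genes were higher in 6 of 9 (median 0.08), among them Sv2b, Eps15 at 0.19 and the clathrin heavy chain gene Cltc at 0.16 and 0.09, with Snap23 lowest at -0.19. These medians depended on the setting: with neighbours removed those of ribosomal proteins, proteasome and vesicle genes were 0 and that of splicing factors 0.02. With the running median along the probe order removed they were 0.05, 0.04, 0 and 0.05, in the order ribosomal, proteasome, vesicle and splicing.

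The other lists had medians close to that of all probes. Cytoskeleton and neurite genes were higher in 10 of 18 probes (median 0.02), with Dpysl5 at one end and Tubb5, the kinesin gene Kif5c at 0.29 and the dynein heavy chain gene Dync1h1 at 0.27 at the other. The axonal and growth genes Nefl, Tuba1a, Mapt and Stmn2 were at -0.06, -0.03, -0.005 and 0.002. Chaperones were higher in 5 of 9 (median 0.03), with Hsp90ab1, a cytosolic Hsp90, lowest at -0.27. Glycolysis and energy buffering genes were higher in 6 of 9 (median 0.02). Slc6a8 was alone at its low end, and both probes of Ckb, whose product stores energy as phosphocreatine, were higher. The list of translation factors, which also holds Rraga and Akt1s1 of mTORC1 signalling, was split 8 to 8 (median 0.001), with Vars and Rraga lowest.

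**Figure D4:**
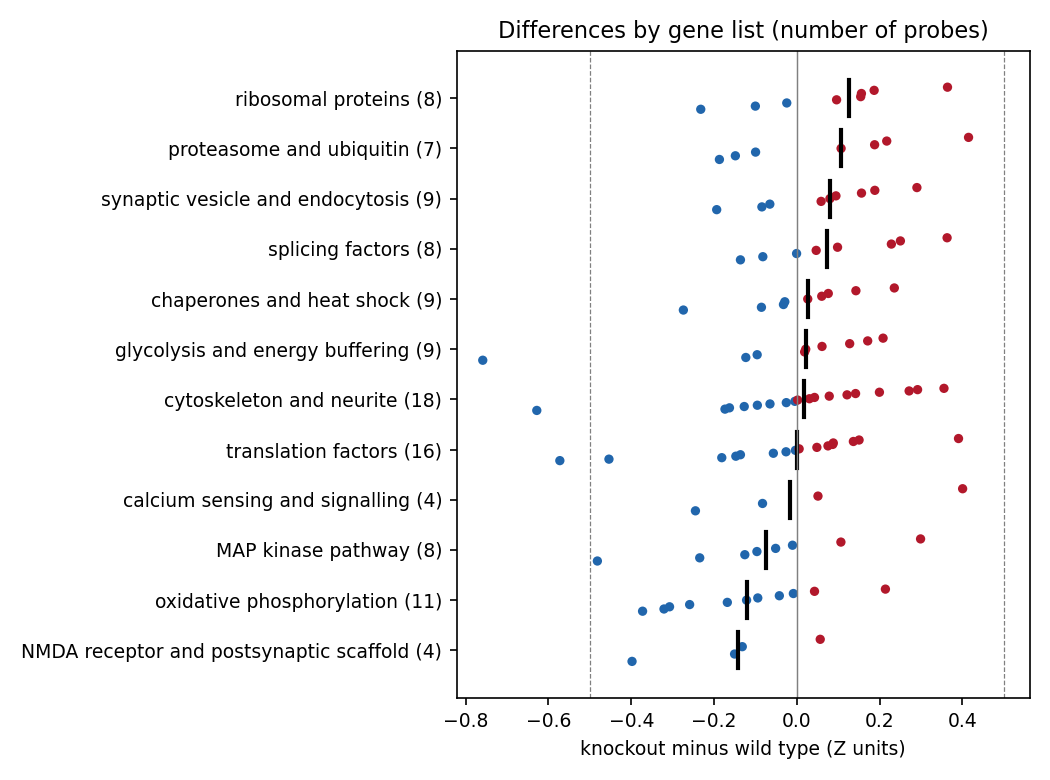
Knockout minus wild-type difference in Z units for every probe of the 12 pathway lists with at least 3 genes, with the number of probes after each name; black bars are list medians and dashed lines mark 0.5 either way. Medians run from -0.14 for postsynaptic genes to 0.13 for ribosomal proteins, and 3 lists have 1 probe past the limit.

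Markers of the cell types that a piece of cortex holds were read to check the labelled tissue. In bulk tissue fewer cells of a type and less RNA per cell cannot be told apart. Neuronal markers were measured for 6 genes on 7 probes, of which 4 were higher and 3 lower (median 0.002). The differences of Hpca, Nefl, Stmn2 and Ncald lay between -0.08 and 0.05. Their wild-type values, -0.82, -0.81, -0.70 and -0.27, were all below the array mean. Those of the other neuronal markers were above it, at 0.53 for Dpysl5 and at 0.25 and 1.32 for the Uchl1 probes. Dpysl5 and Uchl1, at -0.63 and 0.42 and 0.19, are of this list and went opposite ways. Of astrocyte markers, Gfap was at -1.46 and -0.93 in the wild type and -1.52 and -0.89 in the knockout on its 2 probes, and Glul, glutamine synthetase, at 0.74 and 0.84. The microglial receptor gene Csf1r was at 1.0 and 0.85 (difference -0.15). Vascular and fibroblast markers were measured for 4 genes, with Acta2 at -0.08, Col1a2 at -0.06 and -0.03, the growth factor gene Igf2 at 0.26 and Fbn1 at 0.52. No oligodendrocyte or red cell marker was measured (0 genes each), so myelin and blood content could not be compared, and their part in the differences was not tested.

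Nitroarginine, an inhibitor of nitric oxide synthases, was given with NMDA to the rat cultures, so its difference from NMDA alone can be set beside that of the knockout with no array in common. In experiment 1 of that set, the nitroarginine minus NMDA difference correlated with the knockout difference at Pearson r = 0.50 (Spearman rho = 0.561) over 1152 probes, and 74.4% of probes shared a sign. In experiment 2 it did so at r = 0.152 (rho = 0.198), with 60.3% of one sign. These are descriptions of pairs of arrays that share probe order, probe brightness and, for all that is known, hybridisation conditions. In experiment 1 neighbouring probes were correlated as in the mouse pair, at 0.292 for adjacent probes and 0.286 for those 12 apart. With the median of neighbours removed from both, r was 0.437 in experiment 1 and 0.207 in experiment 2.

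Comparisons without a nitric oxide synthase inhibitor, from the MEK set, gave a spread of values. The knockout difference correlated at 0.357 with NMDA minus control in experiment 2, and at -0.008 and -0.03 with PD98059 minus NMDA in experiments 1 and 2. NMDA minus control was left out for experiment 1 of the MEK set. The 2 control arrays of that set correlated at only 0.122, and the control of experiment 2 lay near its NMDA array (SD of the difference 0.241). In the nitric oxide synthase set NMDA minus control shares the NMDA array with nitroarginine minus NMDA. It correlated with the knockout difference at -0.04 in experiment 1 and -0.15 in experiment 2. No test of the difference between these values is possible with 1 mouse pair, so nothing particular to nitroarginine is shown.

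The probes with the widest knockout differences can be followed in the same rat arrays. Of the 18 probes lower past the limit, 18 were lower under nitroarginine in experiment 1, where 47.9% of all probes were, with a median of -0.11 Z units. In experiment 2 only 6 of the 18 were lower, where 54.0% of all probes were, with a median of 0.10. Of the 9 higher probes, 7 were higher in experiment 1 and 8 in experiment 2, where 52.1% and 46.0% of all probes were, with medians of 0.10 and 0.39. So 12 of the 18 lower probes had opposite signs in the 2 experiments.

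By gene, the 12 higher named probes were all above 0 under nitroarginine in experiment 1, by 0.07 to 0.19, and 4 of 12 were above 0 in experiment 2, beside 52.1% and 46.0% of all probes. Fbn1 was at 0.19 and 0.39 in experiments 1 and 2, Rpsa at 0.13 and 0.30, Slc3a2 at 0.07 and 0.20, and Macf1 at 0.11 and 0.06. These 4 are the ones that were higher in both experiments as in the knockout. Uchl1 was at 0.18 and -0.47, and Cacnb1 at 0.09 and -0.56. Of the 12 lower named probes, 11 were lower in experiment 1 and 8 in experiment 2, beside 47.9% and 54.0% of all probes. The counts in experiment 2 are near those shares. The shares are over probes of every level, while the named probes were drawn from above the median level. Nppa was at -0.31 and -0.32, Tcf4 at -0.42 and -0.28, and Rraga at -0.10 in both. Slc6a8 was at -0.03 and -0.08, small beside its knockout difference, and Dpysl5 was at -0.08 and 0.21.

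**Figure D5:**
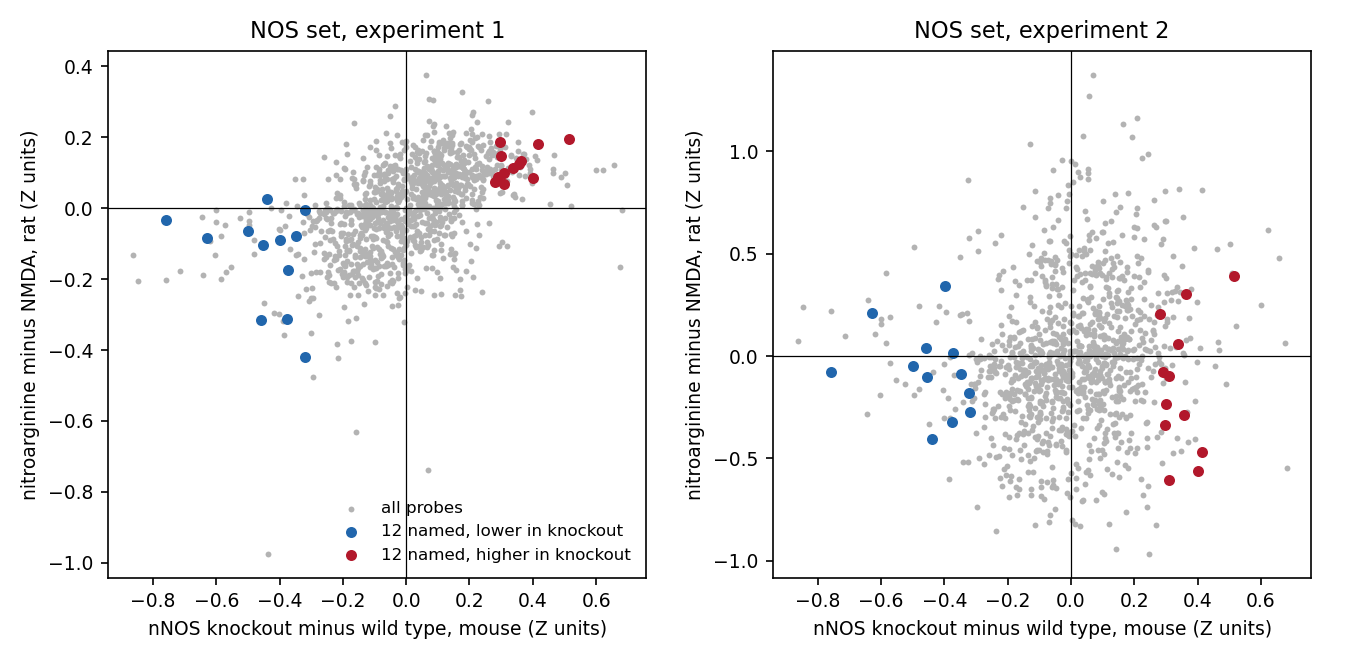
Each point is a probe, with the nNOS knockout minus wild-type difference in mouse cortex on the horizontal axis and the nitroarginine minus NMDA difference in rat cultures on the vertical axis, in Z units, for experiments 1 and 2 of the nitric oxide synthase inhibitor set; the vertical scales of the panels differ. The 12 higher named probes (red) are all above 0 in experiment 1 and 4 are in experiment 2, and the 12 lower ones (blue) are below 0 in 11 and 8 cases.

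Signals from NMDA receptors and nitric oxide can reach the transcription factor CREB, whose binding motif is TGACGTCA or, in short form, TGACG. The letters TGACG or CGTCA (the same motif on the other strand) were therefore looked for in rat promoters from RefSeq, build GRCr8, each 250 bases before to 50 after the gene start, for the 24 named probes. Of their 23 genes 17 matched the table, with 19 promoters, and 4 of these (21.1%) hold the short form, beside 21.2% of all 33469 promoters. The full site was in 0 of the 19 and in 1.83% of all. The windows of the 4 genes, shown because they are the named genes with the motif, have it in capitals. The array's clones are annotated as rat, and the mouse promoters were not used here.
Slc3a2, higher, motif's first base at -18, chr1:215048065-215048112, minus strand: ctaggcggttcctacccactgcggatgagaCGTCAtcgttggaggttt
Bcat1, higher, first base at -61, chr4:179744235-179744299, minus strand: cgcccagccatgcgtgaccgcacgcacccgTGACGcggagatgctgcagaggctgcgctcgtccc
Rpsa, higher, first base at -35, chr8:128728814-128728878, plus strand: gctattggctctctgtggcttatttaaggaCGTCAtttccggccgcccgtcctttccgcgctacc
Nppa, lower, first base at -3 and so across the start, chr5:163712151-163712185, plus strand: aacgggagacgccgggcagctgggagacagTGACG
The share among the named genes was the same as the background, and 3 of the 4 genes were higher and 1 was lower in the knockout. Slc3a2 and Bcat1 each have another promoter in the table without these letters.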

How the data were processed

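Transcript abundance was measured on an array of 1152 probes. The authors deposited a score per probe and array, with a mean of 0 and an SD of 0.998 in both mouse columns; how these scores were made, background correction and filters included: not given in the sources used here. Values were used as deposited. Symbols came from the platform annotation (384 probes with 1 symbol, 6 with several, 762 with none), updated through the rat RefSeq gene table (362 matched, 22 kept as annotated).

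Knockout minus wild type was computed per probe and counted past 0.5 Z units. No test was made, and depth does not apply: 1 array per genotype limits the precision. Named probes are the 12 largest differences each way among probes with 1 symbol and a mean level above the median probe's; members of the postsynaptic and cell type lists are named wherever measured. Members and lists were chosen with earlier results of these data known. Alternatives were quantile normalization, median centring with MAD scaling, loess on level (span 0.3), a running median over 25 probes, limits of 0.3 and 1, a level filter and averaging a gene's probes. Removing medians of every 12th probe or of grid neighbours, alternatives to the nitroarginine correlations, and 8 further lists were added after seeing the data. Scripts were tested on simulated data and used Python 3.11.15, numpy 2.4.6, pandas 2.3.3, statsmodels 0.14.6 and matplotlib 3.10.9.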

Additional observations from a re-analysis of the deposited data

How the results depend on the processing

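The 27 probes past 0.5 (9 higher, 18 lower) became 124 (58 and 66) at a limit of 0.3, 0 (0 and 0) at a limit of 1, and 14 (2 higher) among probes above the median level. Higher probes numbered 5 with MAD scaling, 3 with the running median removed and 2 with grid neighbours removed; lower ones stayed within 1.5 times of 18 in each scaling and trend setting. Of the 27 probes, 26 were past the limit with quantile normalization and 12 with neighbours removed, the most and the fewest. List medians moved by more than 0.128, the SD of single probes between the closest repeated arrays and so a loose measure for a median, for MAP kinase genes (0.14), calcium signalling (0.40, 1 probe left), neuronal markers (0.19) and vascular markers (0.52, 1 probe left) when only probes above the median level were kept. They also did for neuronal markers with neighbours removed (-0.16) and vascular markers with a gene's probes averaged (0.11). Smaller shifts also changed medians: with neighbours removed those of ribosomal proteins, proteasome and vesicle genes went to 0, the value of any probe that was its own median. Of 14 medians, 3 kept their sign in all 8 settings: postsynaptic genes, oxidative phosphorylation and splicing factors (a list without Sf3a3). The nitroarginine correlations ran from 0.437 to 0.542 in experiment 1 and from 0.116 to 0.241 in experiment 2. No paired analysis was possible because each mouse genotype has 1 array and no test was made. The causes of these shifts were not tested.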

Other observations

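Other groups of genes on the array were chosen after their values were seen and are given as descriptions. Their counts and medians were shaped by that choice. Of all probes, 50.6% were higher and 49.4% lower in the knockout. Their values are those without neighbours removed, a step under which Macf1, of the first group, went from 0.34 to 0.13. Genes of microtubule motors and their partners were higher in the knockout on 7 of 8 probes, the median being 0.26 Z units beside 0.003 for all probes. Dctn4, a subunit of dynactin, the activator of dynein, was at -0.53 in the wild type and -0.15 in the knockout (difference 0.39). Kifc3, a minus-end kinesin, was at 0.76 and 1.02 (difference 0.25), and Clip2, a microtubule plus-end protein, at -0.27 and -0.12 (difference 0.15). Dync1h1, Kif5c and Macf1, given above, belong to the same group, and Eml2 was alone on the other side, at -0.07. Other cytoskeleton genes were left out of it, among them Tubb5 at 0.36, Map7d1 at 0.12, Stmn2 at 0.002, Mapt at -0.005 and Tuba1a at -0.03. Under nitroarginine 7 of the 8 were above 0 in experiment 1 of the rat cultures and 4 in experiment 2, beside 52.1% and 46.0% of all probes, with medians of 0.11 and -0.05.

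Genes of mTOR signalling and amino acid sensing were lower on 6 of 9 probes (median -0.09). Among them, Rraga and Akt1s1 were also counted with the translation factors. Larp1, an RNA-binding protein that mTORC1 acts on to control ribosomal protein synthesis, was at 0.63 in the wild type and 0.32 in the knockout (difference -0.31). Slc38a9, a lysosomal arginine sensor, was at -0.18, Tsc2 and Mapkap1 were at -0.09, and Wdr59 was at 0.22. For mitochondrial translation, Mrpl15 was at -0.25 and the elongation factor gene Gfm1 at -0.21, on the side of Mrpl37, while Mrpl10 was at 0.40 and Mrps14 at 0.18. Extracellular matrix genes were split, 7 higher and 8 lower of 15 probes (median -0.005), with Fbn1 and Mfap4 highest and Col18a1 lowest at -0.24. Transcription factor genes were lower on 6 of 9 probes (median -0.10), with Mef2d and Tcf4 lowest and Hes6 highest at 0.27. Protein phosphatase genes were higher on 6 of 10 (median 0.06), from Ppp2r5c at -0.23 to Arpp19 at 0.30. GABA receptor probes other than Gabbr1 were at -0.06 for Gabrp and 0.05 for Gabra2.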
